A study of Mus musculus with 6 samples.

Results

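Oxidative phosphorylation, the making of ATP from the energy of electron transfer in mitochondria, was described here across single cells of the mouse ventromedial hypothalamus. The genes were all rows of the deposited count tables whose symbol starts with Nduf, Uqcr, Atp5, Sdh or mt-, or with Cox followed by a number from 4 to 8. This rule gave 110 of 21926 genes, of which 97 lie in the nucleus and 13, the mt- rows, on the mitochondrial genome. By symbol, the nuclear genes comprised 38 of complex I, 4 of complex II, 8 of complex III, 18 of complex IV, 17 of complex V (ATP synthase) and 12 assembly factors. The promoters of Atp5sl and Atp5s were matched under the symbols Dmac2 and Dmac2l, so their place in complex V rests on the Atp5 symbol alone. No mitochondrial ribosomal or transfer RNA had a row. At least 1 count was found for 107 of the 110.

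The cells came from 3 female and 3 male mice, all at postnatal day 10 and all of genotype Ai14f/+;Sf1-Cre, so no group lacks the reporter or the driver. Ai14 is a fluorescent reporter that Cre switches on for good, and Sf1-Cre is active in the lineage of cells that express Nr5a1 (SF-1). A sorted cell therefore need not express Nr5a1 at the time of sorting. Hypothalamus was dissected, dissociated with papain and sorted by fluorescence, 1 plate of 96 wells per mouse, so mouse and plate cannot be told apart. Wells were kept with at least 500 genes with a count and under 25% of counts in mt- rows. This kept 530 of 576 wells, between 84 and 93 per mouse, and the 46 wells left out all had too few genes.

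Kept wells held 185654 counts in female 2, the shallowest plate, and 441260 to 783270 in the other 5. The median well held 2097 counts in female 2 and 5170 to 7979.5 elsewhere. The 11 neuron markers summed to between 10697 and 13450 counts per 1000000 (CPM) per mouse, and the 9 markers of the ventromedial nucleus to between 921 and 1765 CPM. Astrocyte markers summed to 21.9 to 48.5 CPM in 5 mice and to 281 CPM in female 1, where 10 wells had more glial and vascular than neuronal marker counts. Of 9 microglia markers, 6 were at 0, among them Cx3cr1 and Tmem119.

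Complexes I, III and IV pass electrons to oxygen and pump protons out of the matrix, complex II feeds electrons in from succinate, and complex V uses the returning protons to make ATP. Complex II is built from nuclear genes alone, whereas the other complexes combine nuclear subunits with a few encoded by mitochondrial DNA. Neurons rely on this pathway to pay for ion pumping and synaptic transmission. Several nuclear subunits come as tissue isoforms, with a widespread form and one best known from heart and skeletal muscle, testis or other tissues.

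Sequences bear on 2 of the results and are given first. The first set shows why reads of some mt- genes have more than 1 possible origin. The mouse nuclear genome holds copies of mitochondrial DNA, and annotated pseudogenes on chromosome 1 repeat a stretch of it. The opening 60 bases of mt-Co2 (chrM:7013-7072, plus strand) and of mt-Co3 (chrM:8607-8666, plus strand) are printed beside the matching bases of the pseudogenes Gm28661 (chr1:24615506-24615565, minus strand) and Gm28437 (chr1:24613912-24613971, minus strand). Positions are from GRCm38 (mm10).
mt-Co2: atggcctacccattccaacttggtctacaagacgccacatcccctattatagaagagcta
Gm28661: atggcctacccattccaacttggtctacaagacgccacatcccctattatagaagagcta
mt-Co3: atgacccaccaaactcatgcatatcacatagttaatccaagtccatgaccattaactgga
Gm28437: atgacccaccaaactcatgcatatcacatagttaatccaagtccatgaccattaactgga
Within each pair the bases differed at 0 positions. Over 681 aligned bases of mt-Co2 and 783 of mt-Co3 there were also 0 differences.

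The second set shows the upstream bases of 3 isoform pairs, each a high form and a partner that was low or at 0 (Cox6b1 and Cox6b2, Cox7a2 and Cox7a1, Cox8a and Cox8b), and of Cox6a1, the high form of subunit 6a. Each line holds the 250 bases before the RefSeq start (GRCm38.p6), with matches to the sequence patterns named further on in capitals. Cox6a1 lies at chr5:115348959-115349208, Cox6b1 at chr7:30626115-30626364, Cox6b2 at chr7:4753095-4753344, Cox7a2 at chr9:79759854-79760103, Cox8a at chr19:7217617-7217866 and Cox8b at chr7:140900447-140900696, all on the minus strand, and Cox7a1 at chr7:30183921-30184170 on the plus strand.
Cox6a1: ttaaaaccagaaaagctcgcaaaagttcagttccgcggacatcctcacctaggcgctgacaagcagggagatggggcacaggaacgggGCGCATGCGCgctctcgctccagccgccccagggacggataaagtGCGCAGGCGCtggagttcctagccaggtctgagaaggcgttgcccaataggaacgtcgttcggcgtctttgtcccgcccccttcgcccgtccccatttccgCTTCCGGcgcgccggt
Cox6b1: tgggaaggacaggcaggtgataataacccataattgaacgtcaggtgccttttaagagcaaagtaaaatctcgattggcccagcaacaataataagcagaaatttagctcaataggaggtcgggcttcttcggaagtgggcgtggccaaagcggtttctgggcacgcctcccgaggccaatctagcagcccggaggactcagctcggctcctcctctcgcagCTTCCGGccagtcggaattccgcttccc
Cox6b2: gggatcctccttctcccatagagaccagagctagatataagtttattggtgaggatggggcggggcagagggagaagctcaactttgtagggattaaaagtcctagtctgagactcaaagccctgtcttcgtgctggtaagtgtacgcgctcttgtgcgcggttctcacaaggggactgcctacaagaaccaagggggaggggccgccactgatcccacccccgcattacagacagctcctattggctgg
Cox7a2: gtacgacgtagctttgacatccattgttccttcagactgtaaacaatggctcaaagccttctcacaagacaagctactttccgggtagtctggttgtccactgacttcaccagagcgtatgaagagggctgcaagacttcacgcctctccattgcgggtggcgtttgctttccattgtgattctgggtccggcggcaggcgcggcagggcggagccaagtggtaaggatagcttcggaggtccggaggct
Cox7a1: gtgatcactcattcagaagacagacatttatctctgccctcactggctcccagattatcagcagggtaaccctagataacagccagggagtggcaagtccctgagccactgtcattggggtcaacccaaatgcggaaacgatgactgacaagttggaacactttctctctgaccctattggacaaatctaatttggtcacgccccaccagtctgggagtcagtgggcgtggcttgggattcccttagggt
Cox8a: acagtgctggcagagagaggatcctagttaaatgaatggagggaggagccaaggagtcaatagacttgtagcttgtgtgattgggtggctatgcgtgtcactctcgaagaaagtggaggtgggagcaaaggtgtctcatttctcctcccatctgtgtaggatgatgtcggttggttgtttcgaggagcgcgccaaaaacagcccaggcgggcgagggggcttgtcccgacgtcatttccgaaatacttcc
Cox8b: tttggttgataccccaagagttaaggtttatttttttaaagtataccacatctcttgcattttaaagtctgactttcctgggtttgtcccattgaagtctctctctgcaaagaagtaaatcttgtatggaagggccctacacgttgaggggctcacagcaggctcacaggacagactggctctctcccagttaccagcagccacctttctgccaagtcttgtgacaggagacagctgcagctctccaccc
In the Cox6a1 window, NRF1 patterns began 162 and 117 bases and an ETS pattern 16 bases before the start, and in that of Cox6b1 an ETS pattern began 28 bases before it. In Cox8a, 1 ETS pattern began 5 bases before the start and ran across it, and another began 32 bases after it, so neither lies whole in the printed bases. The Cox6b2, Cox7a2, Cox7a1 and Cox8b sequences held no match, here or in the 50 bases that follow, so a high form, Cox7a2, was among those without one.

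NRF1 and the ETS family member GABP (NRF2) are transcription factors known for regulating nuclear respiratory genes, and YY1 is a further one. RefSeq starts were matched for 81 of the 97 nuclear genes, and the window from 250 bases before to 50 after the start was searched on both strands. The NRF1 pattern, GCGCA then any base then GCGC, was in 21 of the 81 windows (25.9%), against 5.19% of 27025 genes. The ETS pattern CCGGAAG was also in 21 (25.9%), against 9.93% of all genes. The YY1 pattern AANATGGCG was in 13 (16.0%), against 2.76%. An NRF1 or an ETS match was in 37 (45.7%), against 13.99%. Patterns were searched separately, so matches could overlap. The 27025 genes were all those with a RefSeq start and were not matched to the members for level or base content. These counts describe letters in a window and were not tested.

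In the counts as deposited, nuclear and mt- rows held nearly equal parts. Of all counts, the 97 nuclear genes held 4.92%, 5.66% and 4.34% in females 1 to 3 and 5.27%, 5.05% and 4.60% in males 1 to 3. The 13 mt- genes held 4.95%, 5.45% and 5.17% for female and 5.51%, 4.40% and 5.01% for male mice. The ratio of nuclear to mt- counts lay between 0.839 (female 3) and 1.15 (male 2), with a mean of 0.983 ± 0.106 (SD, n = 6 mice). The mt- part rests on 7 of its 13 rows, since the other 6 held 14 of 168088 counts. mt-Nd4 and mt-Co1, whose transcripts are shared in large part with other genes, held 22.6% of it. How reads with several matches were counted is not known here, so the share and the ratio describe these tables and may not give the true balance of the transcripts.

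Single wells spread more widely than plates. The nuclear share of a well ranged from 1.74% (female 1) to 8.20% (male 1), with medians per plate of 4.32% to 5.61%. The mt- share ranged from 1.55% to 11.2%, both in male 3, with medians of 4.23% to 5.45%. Within a plate, Spearman's rho between both shares over its wells was -0.37, 0.08 and 0.20 for female and 0.03, -0.27 and 0.24 for male mice. The sign thus differed between plates, the wells of a plate share 1 library, and both shares have the same total as denominator.

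**Figure D1:**
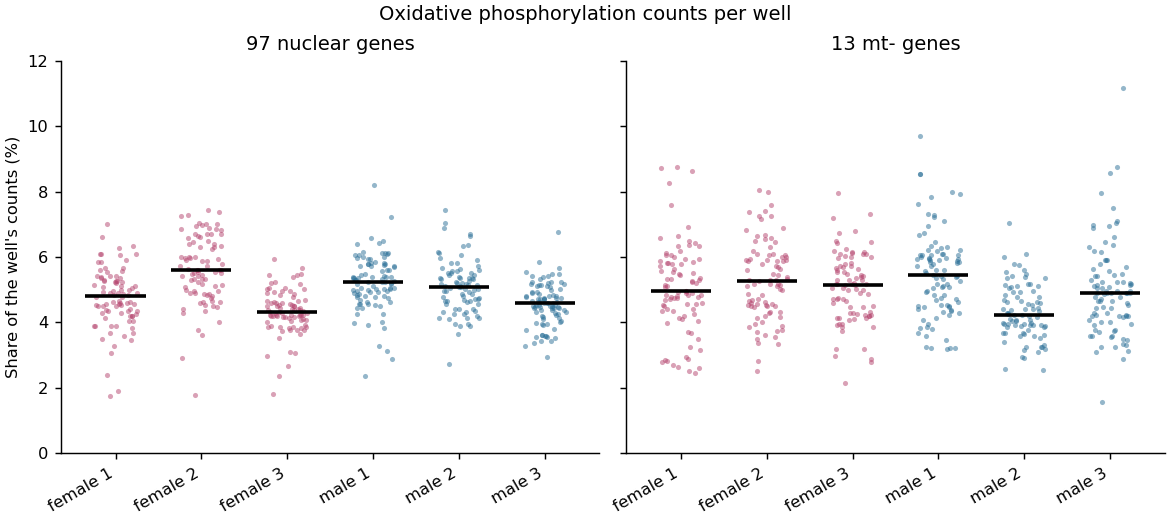
Share of each kept well's counts (%) in the 97 nuclear genes (left) and the 13 mt- genes (right), with 1 point per well and a black line at the median of each mouse. Both shares sit near 5% on every plate, and the mt- share reaches 11.2% in 1 well of male 3.

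Beyond counting error, nuclear genes varied little between the wells of a plate, and mt- genes varied more. Spread was taken as the squared deviations of a gene's counts from those expected by each well's total, relative to counting error, so that 1 means counting error alone. Among genes with at least 100 CPM, the median was 1.12 over 78 nuclear genes and 1.09 over all 1850 genes. It was 4.58 over the 6 mt- genes at that level. Spread is easier to see at high counts: over the 37 genes of all kinds with at least 2000 CPM the median was 2.01, and over the 4 mt- genes among them 5.40.

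Of the mitochondrially encoded genes, 6 were abundant in nearly every well, 1 was low and 6 were almost without counts. Summed over kept wells, mt-Nd1 (complex I) held 49815 counts, mt-Cytb (the mitochondrial subunit of complex III) 48413, mt-Nd4 33198 and mt-Nd2 25052. mt-Nd5 held 6746 and mt-Co1, the catalytic subunit of complex IV, 4737. Per kilobase of transcript these were mean levels of 15903 CPM for mt-Nd1, 13371 for mt-Cytb, 7234 for mt-Nd2, 6824 for mt-Nd4, 1072 for mt-Nd5 and 902 for mt-Co1. mt-Nd6, the only 1 of the 13 encoded on the minus strand (chrM:13552-14070), held 113 counts.

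The other 6 were mt-Co2 with 5 counts, mt-Atp6 with 4, mt-Nd3 and mt-Atp8 with 2 each, mt-Co3 with 1 and mt-Nd4l with 0. Neighbours on the mitochondrial genome, these 6 lie between mt-Co1 (chrM:5328-6872) and mt-Nd4 (chrM:10167-11544). Cut into 50-base stretches, their transcripts recurred in transcripts of other annotated genes for 100% of mt-Co2, 99.9% of mt-Co3, 99.5% of mt-Atp6, 98.8% of mt-Nd4l and 98.0% of mt-Nd3, and for 0% of mt-Atp8. The partners of the first 5 were the pseudogenes Gm28661, Gm28437, Gm10925, Gm10222 and Gm28438 on chromosome 1, none of which has a row in the tables. For mt-Nd4 the share was 62.2% and for mt-Co1 51.1%, whereas for mt-Nd1, mt-Cytb and mt-Nd6 it was 0%. Only annotated transcripts were searched, so a value of 0%, that of mt-Atp8 included, does not exclude copies elsewhere in the genome. The sources used here do not say how reads with more than 1 match were counted, and the part of this in the low counts was not tested. Levels of mt-Nd4 and mt-Co1, and with them the mt- share, are uncertain for the same reason.

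**Figure D2:**
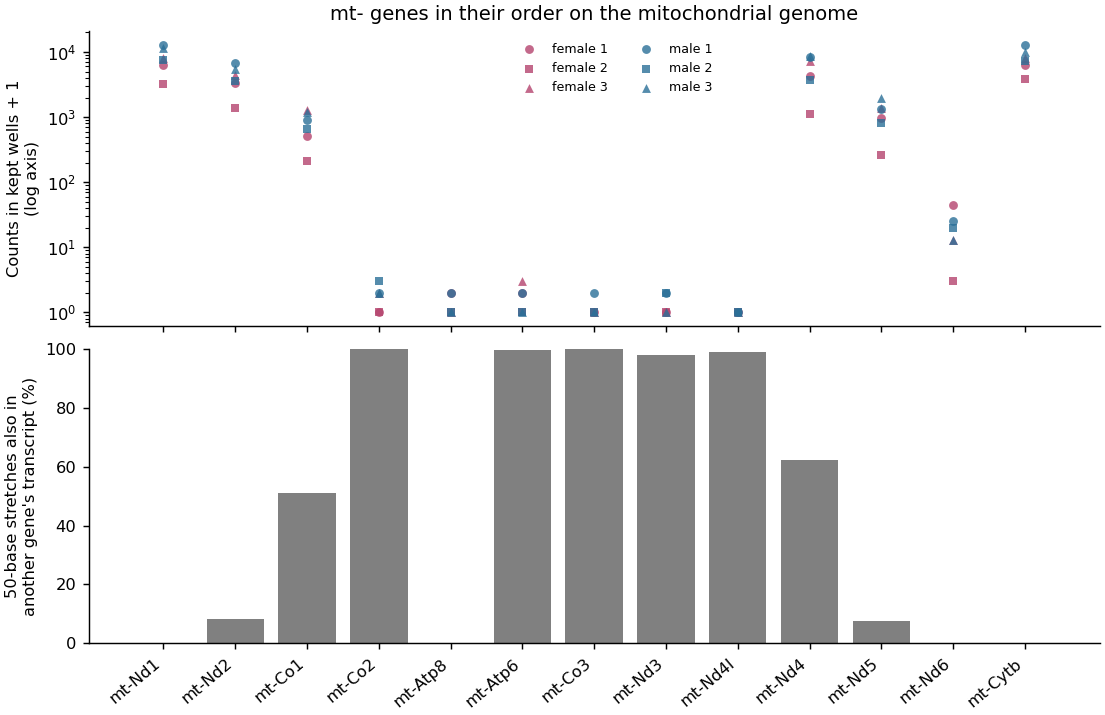
Top: counts of each mt- gene in the kept wells of each mouse, plus 1, on a log axis (pink, female; blue, male), in the genes' order along the mitochondrial genome. Bottom: share of each transcript's 50-base stretches (%) that also occur in a transcript of another annotated gene. The run from mt-Co2 to mt-Nd4l is at 0 to 5 counts in all, and 5 of its 6 genes are shared at 98.0% or more.

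The make-up of the mitochondrial transcripts differed between plates. mt-Cytb counts divided by mt-Nd4 counts gave 1.496, 3.49 and 1.12 in females 1 to 3 and 1.53, 2.00 and 1.16 in males 1 to 3. Female 2, the shallowest plate, was highest, and female 3 and male 3 lowest. mt-Nd4 took 10.9% of mt- counts in female 2 and 15.6% to 23.6% in the other mice. In contrast, mt-Nd2 took between 13.8% and 15.7% in all 6, and the ratio of mt-Nd1 to mt-Cytb stayed between 0.853 and 1.16. Over wells of a plate, the rho between the CPM of mt-Nd1 and mt-Cytb was 0.42 to 0.71.

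Among nuclear genes, the structural subunits of complexes IV and V stood highest and assembly factors lowest. Among genes with at least 100 CPM, the median per kilobase of transcript was 1424 CPM for complex IV (11 genes), 907 for complex V (15), 750 for complex III (8), 542 for complex I (37), 145 for complex II (4) and 134 for assembly factors (3). For Atp5sl, 1 of the 15, no transcript was matched, so that median leaves it out. Transcript lengths are those of the longest protein-coding GENCODE transcript, and a kit that counts 1 end of a transcript would not scale with length. Without division by length, medians over all genes of a group were 822 CPM for complex V, 700 for IV and 559 for III. They were 466 CPM for complex I, 361 for complex II and 72.2 for assembly factors. Of the nuclear complex IV and V genes, 10 of 18 and 12 of 17 had a count in at least 90% of wells, against 12 of 38 for complex I.

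In complex V, Atp5g3, which encodes the ring subunit c that turns as protons pass, held 1951, 2747 and 1551 CPM in the plates of female mice and 1976, 1882 and 1597 CPM in those of male mice. Atp5b, the catalytic beta subunit, held 1895, 1988 and 1624 CPM for female and 1459, 1916 and 1265 CPM for male mice. Female 2 was highest for both, and the sexes overlapped.

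In complex IV, Cox6a1 held 1233, 1751 and 1048 CPM for female and 1471, 1403 and 1092 CPM for male mice. Cox4i1, the widespread form of subunit 4, held 1253, 1896 and 1124 CPM for female and 1219, 1195 and 1220 CPM for male mice. Female 2 was again highest, and the other 5 mice lay close together for Cox4i1. Of its 50-base stretches, 14.7% also belong to the neighbouring gene Emc8 on the opposite strand. Which strand was counted is unknown here, so such overlapping reads cannot be told apart.

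Complex III was led by Uqcrq at 731 ± 78.3 CPM and Uqcrh, the hinge protein near cytochrome c1, at 714 ± 158 CPM (SD, n = 6 mice for these and the next means). Complex I was led by Ndufa4 at 906 ± 108 CPM, whose product is named for complex I and has since been placed in complex IV, and by Ndufa13 at 836 ± 165 CPM. For Ndufa13, 28.5% of 50-base stretches were shared with other genes, mostly Tssk6 on the opposite strand. Complex II was led by the membrane anchor Sdhc at 548 ± 90.2 CPM and the iron-sulphur subunit Sdhb at 522 ± 93.9 CPM. Assembly factors were led by Ndufaf5 at 156 ± 33.3 CPM and Ndufaf3 at 139 ± 37.6 CPM.

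**Figure D3:**
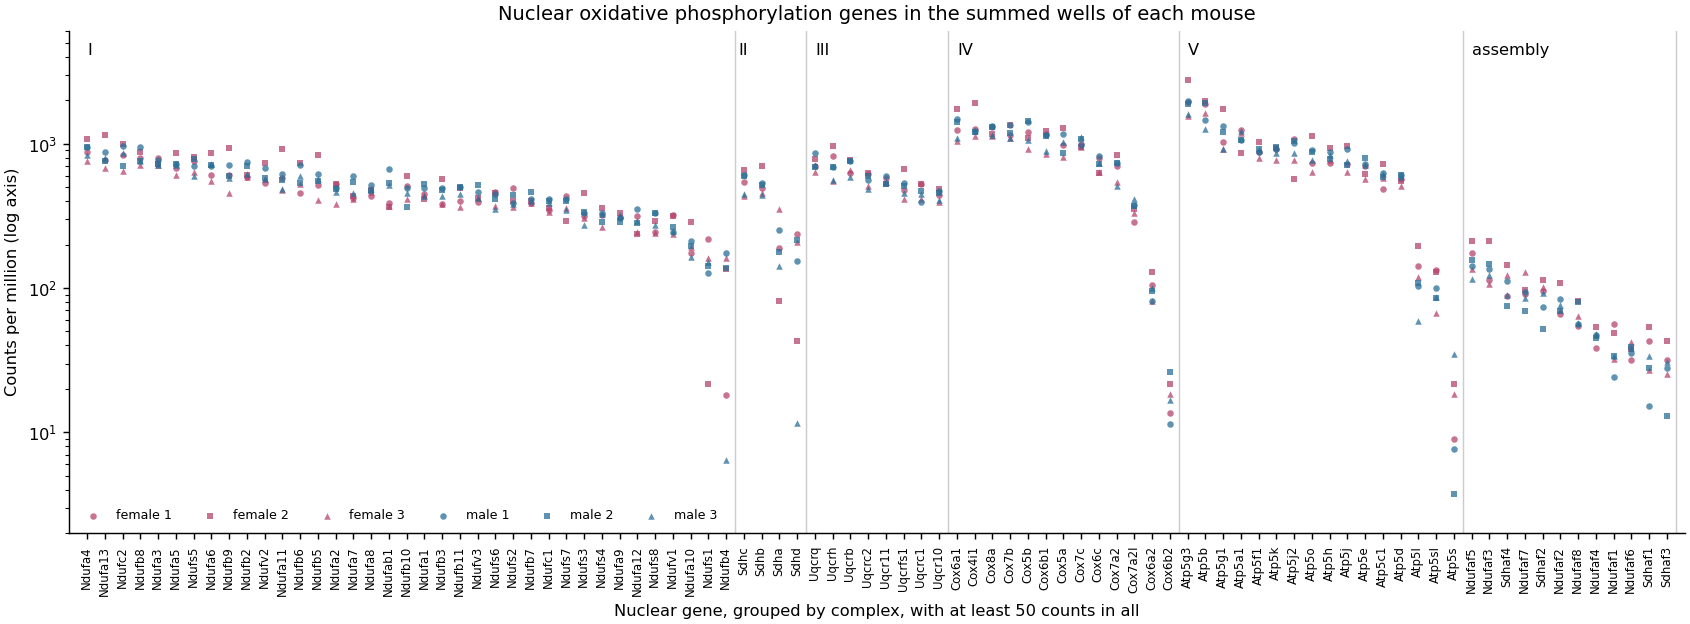
CPM (log axis) of each nuclear gene with at least 50 counts in all, in the summed kept wells of each mouse (pink, female; blue, male), grouped by complex I to V and assembly factors. Most genes keep within a narrow band across the 6 mice, while Sdhd and Ndufb4 drop on 2 plates each and Ndufs1 on 1.

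Most nuclear genes held a similar level on all 6 plates, and for 3 the highest and the lowest plate differed more than 10-fold. Over the 78 nuclear genes with at least 100 CPM, the median ratio of the highest to the lowest mouse was 1.47, against 1.80 over all 1850 genes at that level. The 3 with a ratio over 10 were 3.85% of the 78, against 2.65% of all such genes.

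Sdhd, the small membrane anchor of complex II, held 238, 43.1 and 210 CPM for female and 153, 217 and 11.6 CPM for male mice. It was low in female 2 and male 3, where 9.20% and 9.78% of wells had a count, against 62.5% to 70.9% on the other plates. Ndufb4, a membrane-arm subunit of complex I, held 18.1, 135 and 161 CPM for female and 174, 138 and 6.45 CPM for male mice. It was low in female 1 and male 3, with a count in 9.09% and 5.43% of wells. Ndufs1, the large iron-sulphur subunit that receives electrons in complex I, held 218, 21.5 and 162 CPM for female and 126, 142 and 152 CPM for male mice. Only female 2 was low among the 6, with 4 counts in 4 of its 87 wells.

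Male 3 was thus low for Sdhd and Ndufb4, and female 2 for Sdhd and Ndufs1, while Sdhc and Sdhb held at least 433 CPM on every plate. For Ndufb4, 37.0% of the transcript's 50-base stretches also occur in the pseudogene Ndufb4c, for Ndufs1 5.93% occur in another gene and for Sdhd 0%. What sets these genes apart on those plates was not tested.

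**Figure D4:**
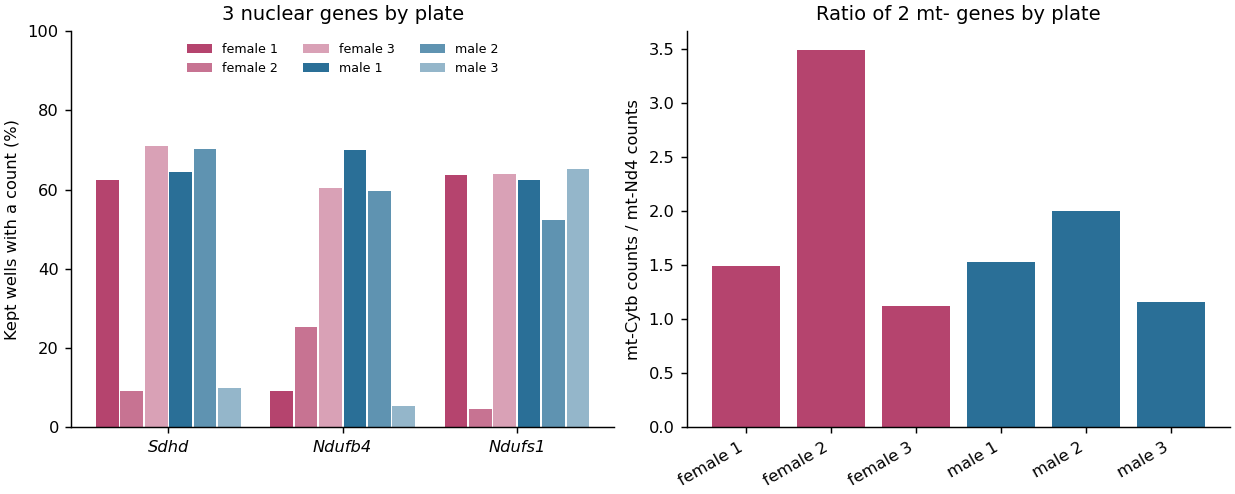
Left: share of kept wells (%) with at least 1 count of Sdhd, Ndufb4 and Ndufs1 on each mouse's plate. Right: mt-Cytb counts divided by mt-Nd4 counts in the summed kept wells of each mouse. Sdhd is low in female 2 and male 3, Ndufb4 in female 1 and male 3 and Ndufs1 in female 2, and the ratio runs from 1.12 in female 3 to 3.49 in female 2.

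Isoform pairs were strongly one-sided. For subunit 4 of complex IV, Cox4i1 held 4110 counts and Cox4i2, the form known from lung, 1. For subunit 8, Cox8a held 4082 counts and Cox8b and Cox8c held 0. A count of 0 in 530 wells allows up to 0.566% of wells with a count. For subunit 6b, Cox6b1 held 3436 counts and the testis form Cox6b2 57. For subunit 7a, Cox7a2 held 2149 counts, Cox7a2l, which helps join complexes III and IV, 1196, and the muscle form Cox7a1 39. Ndufa4 held 2930 counts and Ndufa4l2 4.

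Of the 3 genes that encode subunit c of ATP synthase with different leader peptides, Atp5g3 held 6082 counts, Atp5g1 3711 and Atp5g2 37. Per kilobase of transcript, Atp5g3 stood at 2698 CPM, Atp5g1 at 252 and Atp5g2 lowest, although the longest Atp5g1 transcript is 4715 bases long and that of Atp5g3 723. Atp5g1 shares 11.6% and Atp5g2 14.8% of 50-base stretches with other genes.

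Cox6a2, the heart and muscle form of subunit 6a, was the exception among the minor isoforms. It held 310 counts against 4238 of Cox6a1, and per kilobase 145 CPM against 2334 CPM. On every plate it was found: 104, 129 and 81.1 CPM for female and 81.7, 95.2 and 99.4 CPM for male mice. Its counts were concentrated in few wells. A count was found in 121 of 530 wells (22.8%, exact 95% binomial interval 19.3% to 26.6%, counting error only). Between mice this share varied more widely than the interval, from 13.8% in female 2 to 28.3% in male 3. The 38 wells with at least 3 counts held 201 of the 310. The highest well, in male 1, held 13.

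Its spread over wells was 3.11 times counting error, against a median of 1.05 over the 2514 genes between 50 and 200 CPM. Only 13 of those genes (0.517%) had a higher value, so Cox6a2 was among the most unevenly distributed genes of its level. Of the 38 wells with at least 3 counts, 23 (60.5%) also had a count of Pdyn, against 40.3% of the 409 wells without Cox6a2. For Nr5a1 these were 20 wells (52.6%) against 26.4%, for Tac1 16 (42.1%) against 36.2% and for Sst 6 (15.8%) against 20.8%. Those 38 wells were deeper, with a median of 8193 counts against 5492, and the part of depth in these shares was not tested. The shares also pool wells of all 6 mice. In edgeR fits of summed wells the direction by Tac1 was opposite, with a log2 of Cox6a2 of -0.52, lower in 4 of 6 mice. By Nr5a1 (log2 0.49) and Sst (log2 -0.28) it was the same. For Pdyn, the log2 values of the 12 tested nuclear complex IV genes lay between -0.19 and 0.14, and 0 passed. Cox6a2 passed in none of these fits with all 6 mice. The gene lies at chr7:128205435-128206387 within the span of Itgad on the opposite strand, which itself held 13 counts in 12 wells. This description of single wells was chosen after the values were seen.

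Between females and males, no oxidative phosphorylation gene passed the test. Counts were summed over the kept wells of each mouse and compared with edgeR's quasi-likelihood test, and p-values were adjusted over all 6794 genes tested. Of the 97 tested members, 0 had an adjusted p under 0.05, and of all genes tested 0% did. Over all genes the log2 ran from -4.56 to 5.16, and the smallest edgeR adjusted p was 0.342. A fit that calls no gene at all cannot show that the members are alike in both sexes. DESeq2 also called 0 members, and 0.0589% of all genes. At an unadjusted p under 0.05, edgeR listed 1 member of 97 and 2.46% of all genes. The sexes did not overlap for 10 members (10.3%), against 8.48% of all genes.

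The shares did not separate the sexes either. Nuclear genes held 4.97% ± 0.661 of counts in females and 4.98% ± 0.341 in males, and mt- genes 5.19% ± 0.248 and 4.97% ± 0.555 (SD, n = 3 mice each). The ranges overlapped for both.

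The 5 members with the smallest p did not pass the adjusted test. Ndufab1, the mitochondrial acyl carrier protein that is also a complex I subunit, held 385, 366 and 368 CPM in females and 664, 532 and 514 CPM in males. Its log2 difference, male over female, was 0.63 (SE 0.21), with an edgeR adjusted p of 0.999. All 3 males lay above all 3 females.

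Ndufa7 was likewise higher in every male, at 601, 543 and 456 CPM against 419, 436 and 411 CPM in females (log2 0.36, SE 0.21). Atp5l, subunit g of ATP synthase, held 143, 194 and 118 CPM in females and 103, 108 and 59.4 CPM in males (log2 -0.70, SE 0.33). Of its 50-base stretches, 84.8% also occur in other genes, so its level is uncertain. The complex II assembly factor Sdhaf2 (log2 -0.47, SE 0.30) and the complex I assembly factor Ndufaf1 (log2 -0.54, SE 0.35) had lower means in males. Among the 12 assembly factors, 2 had a higher and 10 a lower estimate in males, with a median log2 of -0.31, against a median of -0.03 over all genes and 0.03 over the nuclear members.

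Wells were then divided, within each mouse, by whether a count of a neuron marker was found. Pdyn encodes the opioid precursor prodynorphin, Nr5a1 the transcription factor SF-1 that defines the ventromedial nucleus, Tac1 the substance P precursor and Sst somatostatin. A count was found in 224 wells for Pdyn, 156 for Nr5a1, 193 for Tac1 and 103 for Sst, and 128 wells had none of the 4. The divisions share wells: of Pdyn wells 40.6% had Nr5a1, and of Nr5a1 wells 44.9% had Tac1. A well without a count need not lack the transcript. Sums of wells with and without the marker were compared with edgeR, with the mouse as a block and the marker's own row removed.

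The mt- share was higher in wells with Tac1 in all 6 mice, and no other marker showed 1 direction throughout. In wells with Tac1, mt- genes held 5.36% ± 0.572 of counts and in wells without it 4.93% ± 0.385 (SD, n = 6 mice). The difference within a mouse was 0.433 ± 0.350 percentage points, from 0.191 in male 1 to 1.13 in female 2. Without female 2, the mean difference was 0.294. The nuclear share differed by 0.0519 ± 0.198 points and was higher in 4 of 6 mice. Shares were described for 4 markers and both genomes and were not tested. Of all genes tested by Tac1, 4.53% had 1 direction in all 6 mice.

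Wells with Tac1 were also deeper in every mouse, for example with medians of 2327 against 1893 counts in female 2 and of 10620 against 7491 in male 3. Spearman's rho between a well's mt- share and its total was -0.03, 0.41 and 0.35 in females and 0.20, 0.33 and 0.20 in males. After each well was thinned to 1500 counts, which left out the shallower wells, the mt- difference was 0.636 ± 0.269 points and positive in 6 of 6 mice. With at least 2 Tac1 counts required, it was 0.485 ± 0.264, again in 6 of 6. In female 1, glial and vascular markers summed to 165 CPM in wells with Tac1 and 855 CPM in wells without, and in the other 5 mice to between 148 and 311 CPM and between 122 and 189 CPM.

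For the other markers the mt- difference was -0.00543 ± 0.221 points for Pdyn, -0.00384 ± 0.255 for Nr5a1 and 0.0384 ± 0.219 for Sst, each positive in 3 of 6 mice. Nuclear differences were -0.00471 ± 0.155, -0.0705 ± 0.163 and 0.0678 ± 0.292 points, positive in 3, 2 and 3 of 6 mice. These 6 differences were all smaller than their spread between mice. After thinning to 1500 counts the mt- difference was 0.291 ± 0.407 points for Sst (positive in 5 of 6 mice), 0.0242 ± 0.381 for Nr5a1 (4 of 6) and -0.0744 ± 0.132 for Pdyn (2 of 6). With at least 2 counts of the marker it was 0.252 ± 0.274 for Sst (5 of 6 mice), 0.144 ± 0.325 for Nr5a1 (4 of the 5 mice with enough wells) and -0.00933 ± 0.257 for Pdyn (3 of 5). These too were smaller than their spread.

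**Figure D5:**
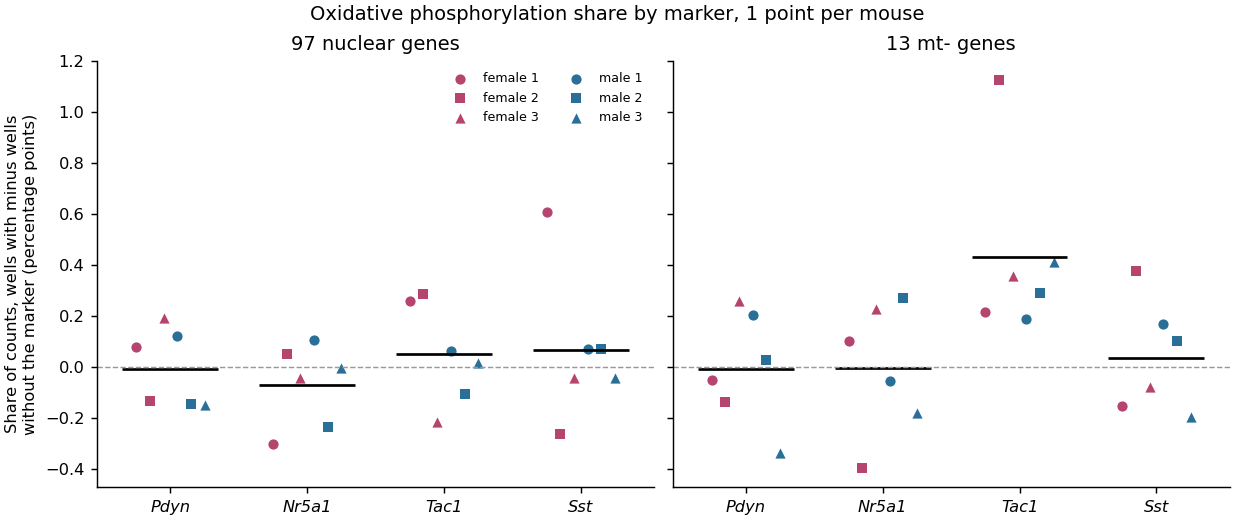
Difference in the share of counts (percentage points) between wells with and wells without a count of each marker, for the 97 nuclear genes (left) and the 13 mt- genes (right), with 1 point per mouse and a black line at the mean. Only the mt- share by Tac1 lies above 0 in all 6 mice, with female 2 at 1.13.

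Gene by gene, 1 of 90 tested members passed between wells with and without Tac1, against 0.888% of the 4392 genes tested (0.455% counted as higher alone). A count of 1 in 90 does not set the members apart from all genes. The member that passed was mt-Cytb (chrM:14145-15288), the subunit of complex III that holds its b haems. In females 1 to 3 it held 15024, 23118 and 14164 CPM in wells with Tac1 and 13987, 19920 and 13131 CPM in wells without. In males 1 to 3 it held 16726, 14783 and 13579 CPM with Tac1 and 16000, 13013 and 12443 CPM without. It rose in wells with Tac1 by 0.13 on the log2 scale (SE 0.033, edgeR adjusted p = 0.0302), higher in 6 of 6 mice.

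The call was narrow. With DESeq2 the adjusted p of mt-Cytb was 0.310, and 0 members and 0.137% of all genes were called. Without female 2, female 3, male 2 or male 3 the edgeR adjusted p was 0.0938, 0.0549, 0.174 and 0.291. Over 14 other settings the log2 difference lay between 0.09 and 0.16 and the adjusted p between 0.00615 and 1.00.

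All 6 tested mt- genes had a positive estimate, with a median log2 of 0.096, against -0.001 over all genes tested. mt-Nd1, a core subunit of complex I, held 16135 ± 2272 CPM with Tac1 and 14717 ± 1507 CPM without (SD, n = 6 mice; log2 0.13, edgeR adjusted p = 0.0674, higher in 5 of 6 mice). mt-Nd2 held 7969 ± 952 CPM with and 7263 ± 645 CPM without (log2 0.12, edgeR adjusted p = 0.224, higher in 5 of 6). These genes are cut from 1 shared precursor transcript and are not independent.

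Of the 84 nuclear genes tested by Tac1, 0 passed, and 42 had a positive and 42 a negative estimate. At an unadjusted p under 0.05 there were 4, against 8.47% of all genes. In all 6 mice the direction was the same for 2 of the 90 members, against 4.53% of all genes. Ndufb4 held 86.4 ± 62.8 CPM with Tac1 and 120 ± 83.5 CPM without (SD, n = 6 mice; log2 -0.45, SE 0.17), lower in 5 of 6 mice. Cox6a2 had a log2 of -0.52 (SE 0.20), lower in 4 of 6 mice. For both the edgeR adjusted p was 0.302.

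By Nr5a1, 0 of 90 members passed, against 1.27% of 4001 genes, and DESeq2 called 0 members and 0.175% of all genes. At an unadjusted p under 0.05, edgeR listed 12 of 90 members and 11.1% of all genes. The same direction in all 6 mice was seen for 7 members (7.78%) and 6.3% of all genes. Of the 12 nuclear complex IV genes tested, 3 had a positive and 9 a negative estimate, with a median log2 of -0.11 against -0.004 over all genes. Of these, 6 had an unadjusted p under 0.05, all negative except Cox6a2. Complex V had 5 positive and 10 negative estimates, and nuclear complex I 19 and 18.

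Cox6b1, which bridges the monomers of complex IV, held 938 ± 161 CPM in wells with Nr5a1 and 1130 ± 177 CPM in wells without (SD, n = 6 mice; log2 -0.24, SE 0.072, edgeR adjusted p = 0.0753). The ratio was below 1 in 5 of 6 mice, and without male 1, the exception, the edgeR adjusted p was 0.0174. Leaving out the only mouse in the other direction favours a call, so this value adds no support. Cox6b1 passed in no other setting. Cox6a2 passed as well without male 1, at a log2 of 0.86 (edgeR adjusted p = 0.0117), against 0.49 with all 6 mice (edgeR adjusted p = 0.325). It too passed in no other setting.

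Cox7c held 924 ± 45.5 CPM with and 1053 ± 99.1 CPM without Nr5a1 (SD, n = 6 mice; log2 -0.21, edgeR adjusted p = 0.142), lower in 6 of 6. Cox8a held 1148 ± 93.2 and 1291 ± 147 CPM (log2 -0.20), lower in 5 of 6. Atp5a1, the alpha subunit of ATP synthase, went the other way, at 1211 ± 191 CPM with and 1048 ± 116 CPM without (log2 0.21, edgeR adjusted p = 0.110), higher in 6 of 6 mice. Ndufa2, a small complex I subunit, had a log2 of -0.24 (edgeR adjusted p = 0.244).

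By Pdyn, 0 of 90 members passed, against 1.6% of 4199 genes, and DESeq2 called 0 members and 0.643% of all genes. The same direction in all 6 mice was seen for 4 members, against 6.24% of all genes. At an unadjusted p under 0.05 there were 3 members, against 11% of all genes. Ndufs5, a complex I subunit on the side facing the intermembrane space, held 767 ± 112 CPM in wells with Pdyn and 665 ± 95.1 CPM without (SD, n = 6 mice; log2 0.19, edgeR adjusted p = 0.295), higher in 6 of 6. Cox7a2l held 319 ± 63.6 CPM with and 377 ± 43.3 CPM without (log2 -0.19, edgeR adjusted p = 0.476), lower in 6 of 6. Uqcrb (log2 -0.20), Ndufa1 (log2 -0.18) and Atp5k (log2 -0.15) were each lower in 5 of 6 mice. After thinning to 1500 counts per well, Atp5k turned to a log2 of 0.034.

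By Sst, 0 of 89 members passed, against 0.22% of 3181 genes, and DESeq2 called 0 members and 0.0314% of all genes. For 3 members the direction was the same in all 6 mice, against 4.06% of all genes. At an unadjusted p under 0.05 there were 5 members, against 5.66% of all genes. Of the 15 tested genes grouped under complex V by symbol, 14 had a positive estimate, against 1589 of all 3181 genes. Their median log2 was 0.07, against -0.0003 over all genes. The largest estimate (log2 0.21) was that of Atp5sl, whose place in complex V rests on its symbol alone. Whether the group as a whole differs from all genes was not tested. Atp5k, a small membrane subunit of ATP synthase, held 984 ± 115 CPM in wells with Sst and 869 ± 70.4 CPM without (SD, n = 6 mice; log2 0.19, edgeR adjusted p = 0.703), higher in 6 of 6.

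Atp5d, Uqcrq and Cox6c had log2 values of 0.19, 0.18 and 0.17 by Sst and were higher in 5 of 6 mice. After thinning, Uqcrq turned to a log2 of -0.081. Ndufa8 held 420 ± 41.7 CPM with Sst and 487 ± 31.3 CPM without (SD, n = 6 mice; log2 -0.22, edgeR adjusted p = 0.838), lower in 6 of 6. No gene of the 5 passed.

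Genes that feed or serve the pathway were read from 9 lists. Between the sexes 0 passed in any list, among them 0 of 77 genes of the mitochondrial ribosome, 0 of 26 further assembly factors, 0 of 19 of protein import, 0 of 18 of the tricarboxylic acid cycle and pyruvate dehydrogenase, 0 of 16 of glycolysis and 0 of 11 of cytochrome c and carriers. By Pdyn, Tac1 and Sst also 0 passed in every list. Regulators of mitochondrial gene expression were mostly too low to test, with 1 of 10 tested between the sexes and 0 of 10 by marker.

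By Nr5a1, 2 of the 167 tested genes of these lists passed, or 1.20%, against 1.27% of all genes tested, so the lists as a whole stood at the background. Pdha1, the catalytic alpha subunit of pyruvate dehydrogenase that links glycolysis to the cycle, rose by 0.63 on the log2 scale in wells with Nr5a1 (SE 0.12, edgeR adjusted p = 0.000957). Sod2, the superoxide dismutase of the mitochondrial matrix, rose by 0.57 (SE 0.15, edgeR adjusted p = 0.0404). Both were higher in 6 of 6 mice. The Pdha1 call was lost with DESeq2 (adjusted p = 0.0592), with no mouse block and after thinning to 1500 counts per well, and edgeR adjusted p ran from 0.000316 to 0.0374 with each mouse left out. The Sod2 call was lost with DESeq2 (adjusted p = 0.299), with no low-count filter (0.213), with at least 2 Nr5a1 counts (0.344), with no mouse block, and without female 1 (0.0791), female 3 (0.310), male 1 (0.0953), male 2 (0.0702) or male 3 (0.114). Sod2 could not be tested after thinning. In glycolysis 13 of 15 tested genes had a positive estimate by Nr5a1, with a median log2 of 0.12 against -0.004 over all genes, and 0 passed. This was not particular to Nr5a1. By Tac1, 12 of 15 glycolysis genes had a positive estimate, with a median log2 of 0.10 against -0.001 over all genes. By Pdyn and by Sst it was 9 of 15 each, with medians of 0.06 and 0.03. Wells with Nr5a1 were deeper in every mouse, for example with medians of 6146 against 4554 counts in female 1.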

How the data were processed

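The deposited tables, 1 per mouse, hold raw integer counts of each gene in each well. HTSeq and the mm10 genome are named in the submitters' processing notes, and BD Precise whole transcriptome libraries in the labels' protocols. Not given in the sources used here are the aligner, versions, which strand was counted, how reads with several matches were treated, and whether molecules or reads were counted. No doublet caller was run. Well names are plate positions and repeat across the 6 tables.

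Counts of kept wells were summed per mouse, or per mouse and marker status where both sums held at least 5 wells, since wells are not replicates. Sums were tested with edgeR 4.0.16 (quasi-likelihood, TMM scaling, filterByExpr, Benjamini-Hochberg adjustment, threshold 0.05) in R 4.3.3. The sex fit held 6 mice and no covariate, and the marker fits had the mouse as a block. DESeq2 1.42.0 was an alternative, with other scalings, filters, wells, detection limits, thinning and each mouse left out. CPM are counts per 1000000 of a sum. Intervals and floors (3 counts) cover counting error only. The fits were tested on simulated counts.

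Gene positions and transcripts are from GENCODE on GRCm38, with a match for 109 of 110 genes, and promoters from RefSeq (GRCm38.p6). Copies of mt- genes were counted at 90% identity or more.

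Named genes followed a rule: up to 6 per direction that passed with 1 direction in every mouse (for sex, no overlap), or, if fewer than 3 did, the 5 with the smallest p. For levels, these were the 2 highest nuclear genes per complex, the mt- genes and the isoform families. Plate-dependent genes and single-well values of Cox6a2 were chosen after their values were seen. Members and lists were chosen with earlier results of these data known. Whether replicate numbers pair the sexes was checked by correlating deviations from the group means, which gave -0.154, -0.0698 and 0.242 for numbers 1 to 3, so they were not taken as pairs.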

Additional observations from a re-analysis of the deposited data

Results flagged for a closer look

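In 28 comparisons over 6 mice, 3 values stood apart from the other 5 by more than an outlier test at the 95% level allows. They came from female 2, the shallowest plate, and from male 3. Chance alone marks about 1 in 20. The difference in mt- share by Tac1 was 1.13 percentage points in female 2. For Ndufa2 by Nr5a1, the log2 ratio in female 2 was 0.55, on 17 counts in its 9 wells with Nr5a1. For Ndufa8 by Sst, the log2 ratio in male 3 was -0.54, in the same direction as the other 5 mice.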

How the results depend on the processing

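The number of members that passed stayed at 0 for sex, Pdyn and Sst under every alternative run. With Tac1, 1 member passed, and 0 did with DESeq2, with no low-count filter, with no replicate block or with the mt- rows removed, which takes mt-Cytb out. With 1500 counts per well 3 passed (mt-Cytb, mt-Nd2 and mt-Nd4), with at least 2 Tac1 counts 3 (mt-Cytb, mt-Nd1 and mt-Nd2), and with each mouse left out in turn 0 to 2. With Nr5a1, 0 to 2 passed when each mouse was left out, the 2 without male 1. Thinning moved the Sst difference in mt- share from 0.0384 to 0.291 points, and turned Atp5k by Pdyn to a log2 of 0.034 and Uqcrq by Sst to -0.081. The cause was not tested. For single named genes, Pdha1 and Sod2 by Nr5a1 included, 2 values changed sign, 19 lost and 5 gained a call, and 363 did neither. The replicate number as a block in the sex comparison (replicate block) gave 0 members and 0 genes of all tested.

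Counts over all genes moved more. For Pdyn, 67 genes passed, against 27 with DESeq2, 112 with 2 counts, 41 without male 1, 3 after thinning and 1 with no replicate block. For Nr5a1, 51 passed, against 7 with DESeq2, 27 without female 3, 23 without male 3, 1 thinned and 0 with no block. For Tac1, 39 passed, against 6 with DESeq2, 71 with no filter, 22 without female 3, male 1 or male 2, 17 without male 3, 5 thinned and 0 with no block. For Sst, 7 passed, against 1 with DESeq2, 17 with no filter, 11 with 2 counts, 4 without male 2, 2 thinned and 1 with no block. For sex, 0 passed, against 4 with DESeq2, 20 with no filter and up to 3 with a mouse left out. Without the filter the median log2 of all genes by Sst was -0.19. Thinning left 1013 to 1181 genes to test.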
